A study of Mus musculus with 8 samples.

Results

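The genes described here are 9 receptor genes that endothelial cells can use to take up or carry proteins and lipoproteins, chosen by name out of the 35852 genes of the deposited gene table. They are 4 members of the LDL receptor family (Vldlr, Lrp1, Lrp8 and Lrp10), 4 other receptors linked to transport at the blood-brain barrier (Tfrc, Insr, Scarb1 and Ager) and the clathrin adaptor Picalm. RNA was sequenced from bEnd3, an established line of mouse brain endothelial cells, in 8 poly(A)-selected libraries. Cells of 4 libraries received 5 µM corticosterone, the main glucocorticoid of mice, for 24 h, and cells of the other 4 were kept in culture medium, as their titles and treatment field give it. For the medium samples the protocol text mentions corticosterone too, and a vehicle is not given. Nothing in the labels tells if the replicates were grown apart, so p-values here speak only of the variation among these 8 samples, which may be technical.

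Receptors of the LDL receptor family are single-pass membrane proteins that bind ligands through cysteine-rich repeats, enter clathrin-coated pits through sorting motifs in their tails, release the ligand in endosomes and mostly recycle. Brain endothelium uses related routes for transcytosis, in which a vesicle crosses the cell: the transferrin receptor and the insulin receptor carry their ligands toward the brain, while Lrp1 and Ager are known for moving amyloid-beta in opposite directions. Picalm links clathrin and phosphoinositide lipids and takes part in the endocytosis of several of these receptors.

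Total estimated counts ran from 19.7 to 46.2 M per library (M is 1000000 counts). In corticosterone replicates 1 and 2 the effective length that kallisto used equalled the transcript length plus 1 in 100% of transcripts of 1000 nt or more, against 0% in the other 6 libraries. Results are therefore given for 8 libraries and, where they differ, for the 6 without this pair. The labels of the groups were checked with genes known to be induced by glucocorticoids: Fkbp5 was 6.83-fold, Per1 4.43-fold and Tsc22d3 3.87-fold higher with corticosterone. All 10 endothelial markers were at a mean of 1 CPM or more (counts per 1000000 of the scaled library), and their summed level was 8610 to 8880 CPM with corticosterone and 7940 to 8490 in medium. Summed markers of fibroblasts were at 5.75 to 6.69 and 19.9 to 21.9 CPM, led by Pdgfra, and those of pericytes at 3.96 to 6.01 and 5.58 to 6.77 CPM. Markers of astrocytes, neurons, microglia, oligodendrocytes and epithelium each summed to at most 1.47 CPM in any library, with Aqp4, Syt1 and P2ry12 at 0 in all libraries. Whether the fibroblast markers bear on the receptor genes was not tested. In bulk RNA, fewer cells of a type and less RNA per cell cannot be told apart.

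These 4 short coding exons are shown because transcripts of Vldlr, Picalm and Lrp8 differ by them, and the share of transcripts with each is given further on. Positions are GRCm38 with GENCODE M21 exons on the + strand, and each sequence is a whole exon, 5′ to 3′. The Vldlr exon at chr19:27246593-27246676 encodes the stretch that carries O-linked sugars next to the membrane. The Lrp8 exon at chr4:107870012-107870188 encodes an insert in the cytoplasmic tail. The Picalm exons are at chr7:90194273-90194296 and chr7:90182219-90182368.
Vldlr 84 nt exon: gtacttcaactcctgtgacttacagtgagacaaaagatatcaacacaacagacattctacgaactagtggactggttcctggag
Lrp8 177 nt exon: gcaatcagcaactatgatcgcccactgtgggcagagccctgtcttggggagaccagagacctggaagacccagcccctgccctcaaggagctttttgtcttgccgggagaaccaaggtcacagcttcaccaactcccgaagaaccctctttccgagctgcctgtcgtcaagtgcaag
Picalm 24 nt exon: aatggcatgcattttccacaatac
Picalm 150 nt exon: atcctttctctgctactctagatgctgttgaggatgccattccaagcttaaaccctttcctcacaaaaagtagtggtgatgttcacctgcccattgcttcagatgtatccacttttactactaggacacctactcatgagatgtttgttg

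With corticosterone, 4 of the 9 genes were higher (Insr, Tfrc, Picalm and Lrp10) and 2 were lower (Vldlr and Lrp1), while Lrp8, Scarb1 and Ager did not pass the threshold of an adjusted p under 0.05 (edgeR's quasi-likelihood test, adjusted over all 13272 genes kept by a filter on low counts). All 9 passed that filter. In the whole table the same test called 40.2% of genes, 19.6% higher and 20.7% lower, so that 6 of 9 genes is 66.7% against this background. In the 6 libraries it called 36.6% of genes and 7 of the 9, Ager being the added one. Differences were modest, with a median absolute log2 fold change of 0.21 over the receptor genes and 0.14 over all genes tested. The 0.21 takes Lrp8 at -0.67 from the gene table, which leaves out most of its counts, as described below. It would be lower with the -0.10 of Lrp8 summed over all its transcripts. The median with its sign was 0.13 over the receptor genes and -0.005 over all genes. Groups did not overlap in 39.9% of all genes, and they did not overlap in the 6 called receptor genes.

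**Figure D1:**
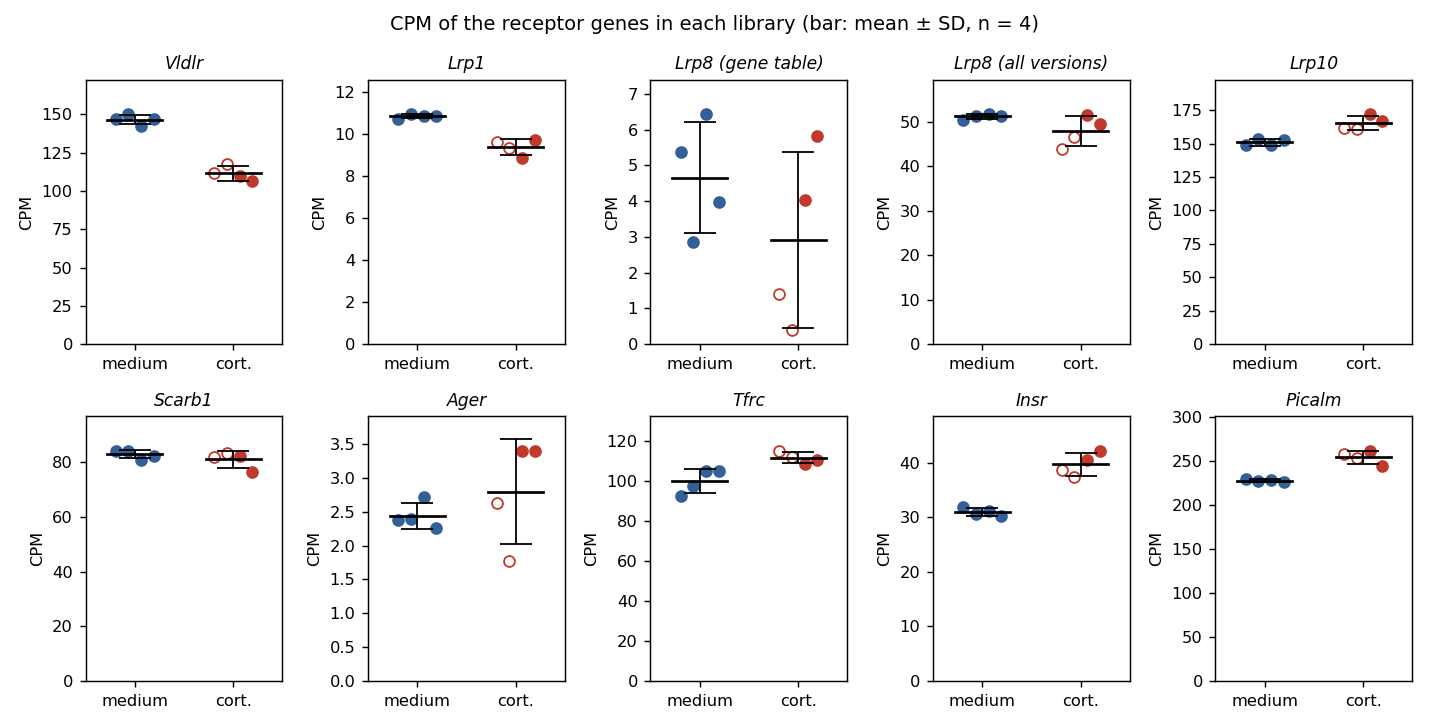
CPM (vertical axis, from 0) of each receptor gene in the 4 medium and 4 corticosterone libraries, with the mean and SD; open symbols are corticosterone replicates 1 and 2, and Lrp8 is drawn both from the gene table and from sums over all its transcripts. The groups separate in Vldlr, Lrp1, Lrp10, Tfrc, Insr and Picalm, and overlap in Lrp8, Scarb1 and Ager.

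Vldlr, which binds lipoproteins rich in triglyceride and, with Lrp8, the guidance protein reelin, was the gene that fell most (chr19:27216484-27254231, + strand). Its CPM in corticosterone replicates 1 to 4 was 112, 118, 109.7 and 106, and in the medium replicates 147, 150.1, 142 and 147. Every corticosterone library lay below every medium library, and corticosterone replicates 1 and 2 were not lower than replicates 3 and 4. The fold was 0.76, a log2 fold change of -0.40 (SE 0.032, 95% interval -0.47 to -0.32, adjusted p = 1.54e-06). The fall was -0.44 in the 6 libraries, and the call held under all 21 alternatives tried.

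A window of 250 bases before an annotated start of Vldlr was picked because it holds, in capitals, a half-site of the glucocorticoid response element (RefSeq, GRCm38.p6, chr19:27216234-27216483, + strand). The window of the other annotated start of Vldlr, at chr19:27216770-27217019, holds no half-site.
Vldlr promoter: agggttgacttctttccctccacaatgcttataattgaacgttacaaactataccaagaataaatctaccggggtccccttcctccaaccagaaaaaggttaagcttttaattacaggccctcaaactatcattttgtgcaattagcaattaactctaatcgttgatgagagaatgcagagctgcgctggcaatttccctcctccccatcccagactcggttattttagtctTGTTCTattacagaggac
The half-site TGTTCT, or AGAACA on the other strand, has its first base 18 bases before the start. Such a half-site was present in 16.1% of 32851 promoter windows of this length, and in 2 of the 11 windows of the 7 receptor genes that have one in the table, the other being a window of Lrp8. The full element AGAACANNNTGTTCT, which contains both half-sites, was in 0 of the 11 windows and in 0.00913% of all windows. These matches describe letters and say nothing of binding.

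Lrp1, a large receptor for apolipoprotein E, protease complexes and amyloid-beta, was also lower (chr10:127538161-127621148, - strand). Its CPM with corticosterone was 9.59, 9.35, 8.86 and 9.72, against 10.7, 10.9, 10.9 and 10.9 in medium. The medium libraries lay close together and all above the corticosterone libraries. The log2 fold change was -0.21 (SE 0.054, adjusted p = 0.00879), from 216 to 505 estimated counts per library. The call was lost with DESeq2 (-0.20, adjusted p = 0.0546). On TPM in the 6 libraries the value was 0.03 with a pseudocount of 1 (adjusted p = 0.936). Per length in these libraries Lrp1-201 held 49.77% with corticosterone and 65.89% in medium. Lrp1-210, 600 nt long, held 12.44% and 0.0%, from 1.2 estimated counts in each of corticosterone replicates 3 and 4. Shares per length thus rest partly on few counts, and their bearing on the TPM value was not tested.

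Lrp10, a family member of the trans-Golgi network and endosomes, was slightly higher (chr14:54464137-54471497, + strand). Its CPM was 162, 161, 172 and 167 with corticosterone, and 149, 153, 149 and 153 in medium. The groups did not overlap, and replicates 1 and 2 were the lower corticosterone libraries. On the log2 scale the difference was 0.13 with an SE of 0.026 (adjusted p = 0.00174), and 0.17 in the 6 libraries.

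Lrp8, also called ApoER2, is a receptor for reelin and for selenoprotein P (chr4:107802261-107876840, + strand). In the gene table it had a CPM of 1.39, 0.406, 4.04 and 5.82 with corticosterone, and of 5.36, 2.87, 6.43 and 3.97 in medium. These values scatter widely and overlap, with both lowest ones in corticosterone replicates 1 and 2. The log2 fold change was -0.67 with a 95% interval of -2.38 to 1.04 (adjusted p = 0.504), and 0.06 in the 6 libraries.

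The gene table leaves out most Lrp8 counts. Of its 12 transcripts in the deposited transcript tables, 5 carry a version number other than the one in GENCODE M21. They hold 87.6% to 99.2% of its estimated counts per library and are not in its gene row. Among the 35852 genes, 176 differed by more than 0.5 counts in this way, and Lrp8 was the one such gene among the receptors. Summed over all versions, an alternative chosen after the data were seen, Lrp8 had a CPM of 43.8, 46.6, 51.5 and 49.4 with corticosterone, and of 50.3, 51.4, 51.7 and 51.3 in medium. Corticosterone replicates 1 and 2 were the lowest again, and replicate 3 lay among the medium libraries. In that fit, which called 40.5% of all genes, the log2 fold change was -0.10 (95% interval -0.20 to 0.00, adjusted p = 0.109), and -0.02 in the 6 libraries (95% interval -0.10 to 0.06, adjusted p = 0.764).

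**Figure D2:**
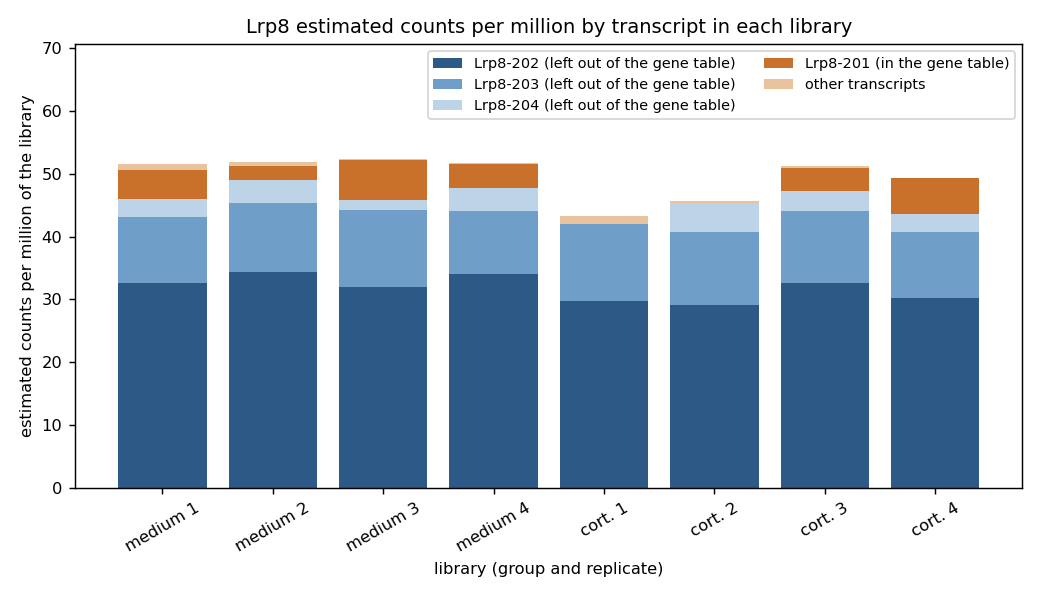
Estimated counts of Lrp8 transcripts per 1000000 counts of the library (stacked bars, vertical axis from 0) in each of the 8 libraries. The blue transcripts, left out of the gene table, make up most of each bar, and Lrp8-201, which is in the table, is at 0 in corticosterone replicates 1 and 2.

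Lrp8-202 took 64.3% ± 3.05 of the gene's estimated counts with corticosterone and 64.2% ± 2.37 in medium (SD, n = 4), and Lrp8-203 took 24.4% ± 3.21 and 21.1% ± 1.72. The plot of Lrp8 transcripts shows that the 2 forms kept this order of counts in every library. Per length in the 6 libraries the order was the reverse. Lrp8-202 was at 36.5% with corticosterone and 36.35% in medium, and Lrp8-203 at 41.17% and 38.56%. The files give Lrp8-202 a length of 7391 nt and Lrp8-203 one of 2531 nt, where M21 has 6627 and 2648 nt, so their exon content, taken from M21, is uncertain.

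Tfrc, the transferrin receptor and a target of antibodies designed to cross the barrier, was higher (chr16:32608920-32632794, + strand). Its CPM was 115, 112, 108 and 111 with corticosterone, and 92.5, 97.3, 105 and 105 in medium. The groups did not overlap, but medium replicates 3 and 4 came close to the lowest corticosterone library. On the log2 scale the difference was 0.16 with an SE of 0.04 (adjusted p = 0.00831). With a model term for corticosterone replicates 1 and 2 it was 0.13 and missed the threshold (adjusted p = 0.0609).

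Insr, the insulin receptor tyrosine kinase, had the largest rise among the genes called in 8 libraries (chr8:3122061-3279617, - strand). Its CPM was 38.7, 37.3, 40.6 and 42.2 with corticosterone, and 31.9, 30.7, 31.2 and 30.3 in medium. All corticosterone libraries stood clear of the medium libraries. The fold was 1.28, a log2 fold change of 0.36 (SE 0.042, 95% interval 0.26 to 0.45, adjusted p = 3.19e-05), and 0.42 in the 6 libraries, where Ager was at 0.50. On TPM in the 6 libraries it was 0.14 with a pseudocount of 1 (adjusted p = 0.651), missing the threshold. Insr-201 held 98.0% of the gene's counts with corticosterone and 97.7% in medium. Per length in the 6 libraries it held 89.8% and 78.8%, with Insr-203 at 4.83% and 18.2%. Insr-203 is 672 nt long and had 1.5 and 3.1 estimated counts in corticosterone replicates 3 and 4. It had 2.7, 22.2, 7.7 and 0.0 in medium, so the shares per length rest on few counts.

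Scarb1, the HDL receptor SR-BI, did not pass the test (chr5:125277087-125341094, - strand). Its CPM was 82.0, 83.4, 82.2 and 76.3 with corticosterone, and 84.0, 84.1, 80.9 and 82.4 in medium. The groups overlap, with corticosterone replicate 4 the lowest library. Its log2 fold change was -0.03, with a 95% interval of -0.10 to 0.04 (adjusted p = 0.443).

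Ager, the receptor for advanced glycation end products, had few counts (chr17:34597862-34600936, + strand). Its CPM was 2.63, 1.77, 3.40 and 3.40 with corticosterone, and 2.37, 2.39, 2.71 and 2.26 in medium, from 48 to 112 counts per library. Corticosterone replicates 3 and 4 were the highest libraries and replicate 2 the lowest. The log2 fold change was 0.21 (95% interval -0.20 to 0.62, adjusted p = 0.405). In the 6 libraries it was 0.50 and passed the threshold (adjusted p = 0.00966), as it did without corticosterone replicate 2 alone (0.38, adjusted p = 0.0433).

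Picalm, the clathrin assembly protein, was higher (chr7:90130213-90213465, + strand). Its CPM was 258, 253, 262 and 245 with corticosterone, and 229.5, 227, 228 and 226 in medium. Medium libraries differed little from each other and lay below all corticosterone libraries. The log2 fold change was 0.16 (SE 0.024, adjusted p = 0.000222). On TPM in the 6 libraries, with a pseudocount of 1, Tfrc, Lrp10 and Picalm had log2 fold changes of 0.11, 0.10 and 0.12 and missed the threshold (adjusted p = 0.223, 0.269 and 0.132), and 2862 genes were called in place of 5337.

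**Figure D3:**
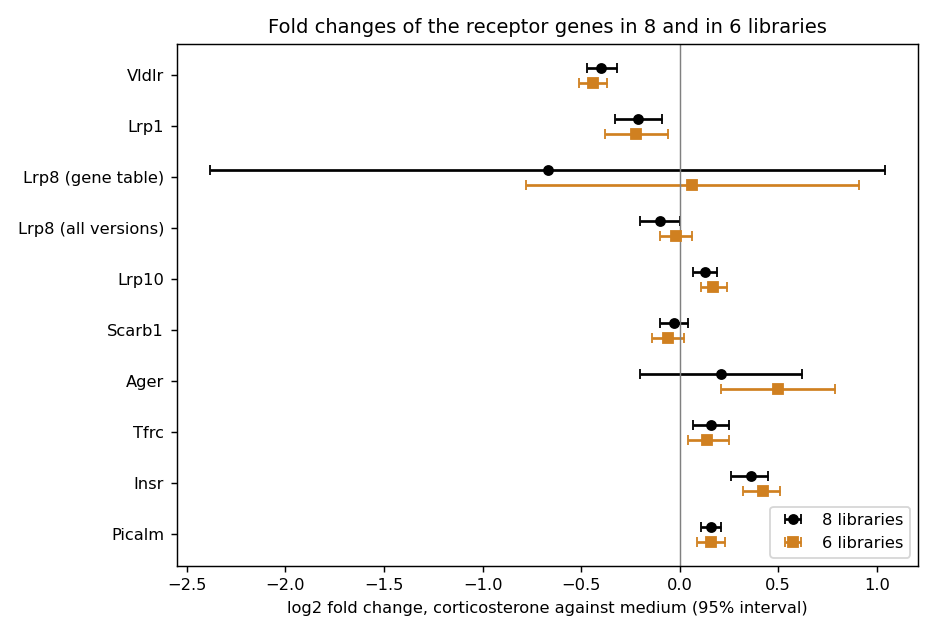
Log2 fold change of each receptor gene, corticosterone against medium (horizontal axis, with 95% interval), in all 8 libraries and in the 6 libraries without corticosterone replicates 1 and 2. Among the genes called in 8 libraries Vldlr and Insr lie farthest from 0, Ager is at 0.50 in the 6 libraries, and Lrp8 of the gene table and Ager have the widest intervals.

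Levels of different genes were compared as TPM per length, computed from the estimated counts with 1 effective length per transcript for all libraries. In medium the order was Picalm (110.0 ± 4.44), Lrp10 (58.0 ± 3.09), Scarb1 (51.5 ± 1.76), Vldlr (41.5 ± 2.76), Tfrc (33.3 ± 1.25), Lrp8 over all versions (17.3 ± 1.57), Insr (5.99 ± 1.46), Ager (2.80 ± 0.0958) and Lrp1 (1.61 ± 0.516, TPM, mean ± SD, n = 4). No neighbouring genes in this order overlapped over the medium libraries. With corticosterone, Vldlr at 27.7 to 31.6 TPM lay below Tfrc at 31.7 to 35.8, the reverse of their order in medium (37.6 to 44.0 and 32.0 to 34.4). Lrp1 was last per length, and its transcript Lrp1-201 is 14888 nt long. In CPM, which are not divided by length, its medium mean was 10.84. Ager was lower at 2.436, and the other receptor genes were higher, with Insr at 31.02 and Lrp8 over all versions at 51.15.

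The profiles most like that of Insr over the 8 libraries, by the root mean square difference of log2 CPM centred on medium, were those of Mtpap (0.031), Sema3f (0.032) and Riok3 (0.043). Those most like Vldlr were Net1 (0.025), Nceh1 (0.029) and Mcm10 (0.031).

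The composition of transcripts was then compared within the receptor genes. Tfrc, Lrp1, Lrp10, Insr and Scarb1 each had 1 transcript with over 90% of the counts in both groups. Vldlr was spread over Vldlr-207 (59.7% ± 2.68 with corticosterone and 60.3% ± 1.26 in medium, SD, n = 4), Vldlr-201, which is annotated for nonsense-mediated decay (25.1% ± 6.63 and 22.1% ± 4.02), and Vldlr-208 (12% ± 4.62 and 14.7% ± 3.81). Each of these differed between groups by less than its spread. Picalm was divided too, with Picalm-212 at 33.2% ± 5.83 and 31.1% ± 3.11 and Picalm-213 at 21.5% ± 15.6 and 22.0% ± 3.88. Picalm-201 and Picalm-215, which like Picalm-212 carry the 24 nt exon, were at 6.31% ± 6.09 and 14.37% ± 2.27, and at 2.24% ± 2.75 and 9.34% ± 3.34. Picalm-202 was at 15.5% ± 17.89 and 9.06% ± 4.53, with 41.6% in corticosterone replicate 1, and Picalm-205 at 11.85% ± 8.5 and 8.13% ± 3.15. Ager was spread over at least 5 forms, with SDs of up to 21.3 percentage points between libraries of a group, so single forms could not be compared.

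In a test of transcript usage (edgeR diffSpliceDGE, Simes over transcripts), 59 of 8870 genes passed, 0.665%, and none of the 8 receptor genes tested did, also at an unadjusted p under 0.05. On simulated data this test called more unswitched genes than its threshold allows. The simulation gave all transcripts the same dispersion (spread between libraries) and no error of assignment, so its error rate need not hold for these libraries. Lrp1 had too few transcripts kept to be tested. The limma form of the test called 25 genes, 0.282%, and no receptor gene. In the 6 libraries the edgeR form called 1.27% and the limma form 1.97% of genes, again with no receptor gene, though Picalm had an unadjusted p of 0.0257 and 0.0183 (adjusted p = 0.542 and 0.228). Without corticosterone replicate 3, Vldlr passed in the edgeR form (adjusted p = 0.0379).

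The exon shares give a coarser view, since forms that share an exon are added up. The share of Picalm counts on transcripts with its 24 nt exon was 38.2%, 40.2%, 47.5% and 42.2% with corticosterone, and 54.4%, 51.2%, 57.1% and 57.7% in medium. All corticosterone libraries were lower, with replicates 1 and 2 the lowest. The means were 42.0% ± 3.98 and 55.1% ± 2.99, a difference of -13.1 percentage points (two-sided exact permutation test, p = 0.02857, the smallest this design allows). The Benjamini-Hochberg value over the 5 exons compared was 0.143, and these exons were chosen after the values were seen. The difference was -10.3 points in the 6 libraries. It was -14.0 points when counts were divided by length, and -9.2 points so in the 6 libraries.

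The 150 nt exon of Picalm was on 43.6% ± 2.22 of counts with corticosterone and 45.7% ± 1.78 in medium (exact permutation p = 0.22857). The 84 nt exon of Vldlr is carried by Vldlr-207 alone, so its share repeats the share of that transcript. It was on 59.7% ± 2.68 and 60.3% ± 1.25 (exact permutation p = 0.8). The 177 nt exon of Lrp8 was on 29.3% ± 2.98 and 29.5% ± 4.35 (exact permutation p = 0.91429). In none of these 3 exons did the difference exceed the larger SD of its groups. For the 150 nt exon of Picalm it was -2.1 points, which is more than the SD of 1.78 in medium. The remaining exon, of 381 nt, encodes ligand-binding repeats of Lrp8 and was on 10.5% ± 7.0 and 14.0% ± 1.88 (exact permutation p = 0.45714), with corticosterone replicate 1 at 1.1%.

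**Figure D4:**
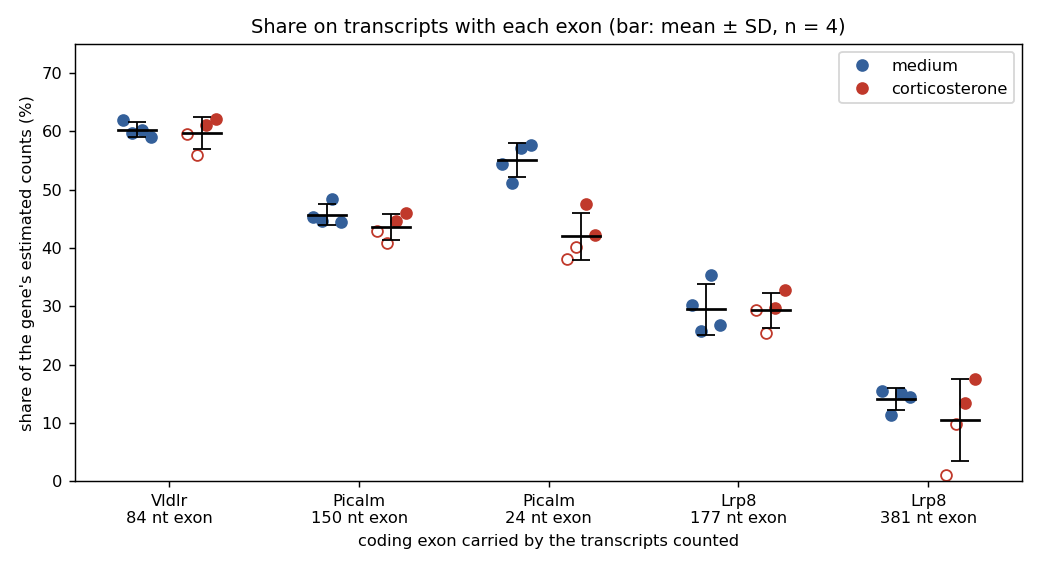
Share of a gene's estimated counts (vertical axis, %, from 0) on transcripts that carry each of 5 coding exons, in 4 medium and 4 corticosterone libraries, with mean and SD; open symbols are corticosterone replicates 1 and 2. The groups separate in the 24 nt exon of Picalm and overlap in the other 4 exons.

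Genes that work with these receptors were read from the same fit in 10 lists, of which 123 of 153 genes were tested, and 38 were higher and 29 lower. That is 54.5% called, against 40.2% of all genes. The higher genes include Cd36, Grb14 (0.592 against 0.0605 CPM) and Dnm1 (0.478 against 0.149 CPM), of the lipoprotein, insulin receptor and clathrin lists. They passed the filter on low counts mainly through corticosterone libraries, so their calls carry no weight. On TPM in the 6 libraries 44 list genes were called, 25 higher and 19 lower. Among the other LDL receptor family genes, 0 of 6 tested were higher and 3 lower (50% called), and the median log2 fold change was -0.12. Lrp5, a Wnt co-receptor, fell by 0.16 on the log2 scale (adjusted p = 0.00184). Lrp4 was at 1.20 and 1.62 CPM (log2 fold change -0.42, adjusted p = 0.0328), a call lost in 16 of 21 alternatives. Lrp6 (-0.09, adjusted p = 0.0574), Lrp11 (0.00) and Lrp12 (0.04) did not pass, though Lrp6 did in 6 of 21 alternatives, among them the 6 libraries (-0.11) and the fits without corticosterone replicate 1 (-0.11) or medium replicate 3 (-0.12).

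Of 9 ligands tested, 4 were higher and 2 lower, or 66.7% called. App, the amyloid precursor, rose from 482 to 689 CPM (log2 fold change 0.52), Plat, the tissue plasminogen activator that Lrp1 clears, by 0.54, Selenop, a ligand of Lrp8, by 0.35 and Tfpi by 0.17. Thbs1, an Lrp1 ligand of the matrix, fell from 114 to 29.4 CPM (log2 fold change -1.95, adjusted p = 2.85e-06), and Clu fell by 0.23. Among 11 chaperones, adaptors and regulators, 3 were higher and 3 lower, or 54.5% called. Lrpap1, the chaperone RAP that keeps family receptors from binding ligands early, rose by 0.27 and the sheddases Mmp14 and Adam17 by 0.26 and 0.13. The adaptors Shc1 and Dab2 fell by 0.36 and 0.28.

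Of 13 iron genes, which act beside Tfrc, 4 were higher and 4 lower (61.5% called), and in the 6 libraries 4 and 2. On TPM there, 2 were higher. The ferritin heavy chain Fth1 rose from 1010 to 1440 CPM (log2 fold change 0.51, adjusted p = 4.95e-08), and Steap2, a metalloreductase, by 0.36. Slc11a2, the endosomal iron carrier, rose by 0.17 and the iron regulatory protein Aco1 by 0.13, while the other regulatory protein, Ireb2, fell by 0.09. Hmox1, Hfe, a partner of the transferrin receptor, and Steap3, the ferrireductase of the transferrin cycle, fell by 0.28, 0.40 and 0.62.

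Of 19 tested relatives and signalling partners of Insr, 6 were higher and 10 lower, or 84.2% called. Ceacam1, which promotes insulin clearance, rose from 41.4 to 85.8 CPM (log2 fold change 1.05, adjusted p = 6.45e-09), and the receptor inhibitor Grb10 from 252 to 390 CPM (0.63, adjusted p = 2.52e-09). Foxo1, a transcription factor restrained by insulin signalling, fell from 156 to 101 CPM (-0.63, adjusted p = 5.37e-09). The related receptors Igf1r and Igf2r had log2 fold changes of -0.57 and -0.55, opposite in sign to the 0.36 of Insr.

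Of 11 tested genes for lipoproteins and scavenger receptors, 5 were higher and 2 lower, or 63.6% called. Gpihbp1, which anchors lipoprotein lipase on endothelium, rose from 12.1 to 23.4 CPM (log2 fold change 0.95, adjusted p = 1.97e-07). The scavenger receptor Stab2 rose by 1.07, a call lost on TPM in the 6 libraries (0.56 with a pseudocount of 1), and the cholesterol exporters Abca1 and Abcg1 by 0.42 and 0.33. Cd36, a fatty acid receptor, was called higher at a mean of 0.751 against 0.089 CPM. It passed the filter on low counts mainly through its corticosterone libraries, so this call carries no weight. Scarb2 and Scarf1 fell by 0.22 and 0.09. Of 9 Ager ligands and partners, 3 were higher and 0 lower, or 33.3% called. Lgals3 rose from 6.51 to 21.1 CPM (1.70, adjusted p = 3.4e-09), S100a1 by 0.60 and Ddost by 0.12. In the 6 libraries 1 was lower and on TPM there 2 were, and the call of Ddost was lost in 4 of 21 alternatives (0.08 with a term for the other 2 libraries, 0.05 on TPM).

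The clathrin coat and its adaptors, the machinery of Picalm, had 7 of 20 tested genes higher and 1 lower. That is 40% called, near the 40.2% of all genes. The median log2 fold change of the list was 0.06. Hip1r, which ties clathrin to actin, rose from 105 to 185 CPM (0.81, adjusted p = 1.51e-10), and Epn2 and Bin1 by 0.26 and 0.25. The clathrin heavy chain Cltc had 780 and 773 CPM with a log2 fold change of 0.01, and Fcho2 fell by 0.11. No clathrin gene was lower with DESeq2, with no filter on low counts, on TPM, or without corticosterone replicate 4 or medium replicate 1, and 2 were with library-size scaling. Of 19 endosomal genes, 5 were higher and 3 lower, or 42.1% called. Rab4a, a GTPase of fast recycling, rose from 10.8 to 22.1 CPM (1.04, adjusted p = 1.62e-08) and Rab5c, of early endosomes, by 0.36, while the recycling protein Ehd3 fell from 51.4 to 27.2 CPM (-0.92, adjusted p = 7.57e-09). Of the 6 other receptors used for transcytosis, 33.3% were called. Slc3a2, the CD98 heavy chain, rose by 0.12 and Hbegf fell by 0.42, and 4 did not pass.

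**Figure D5:**
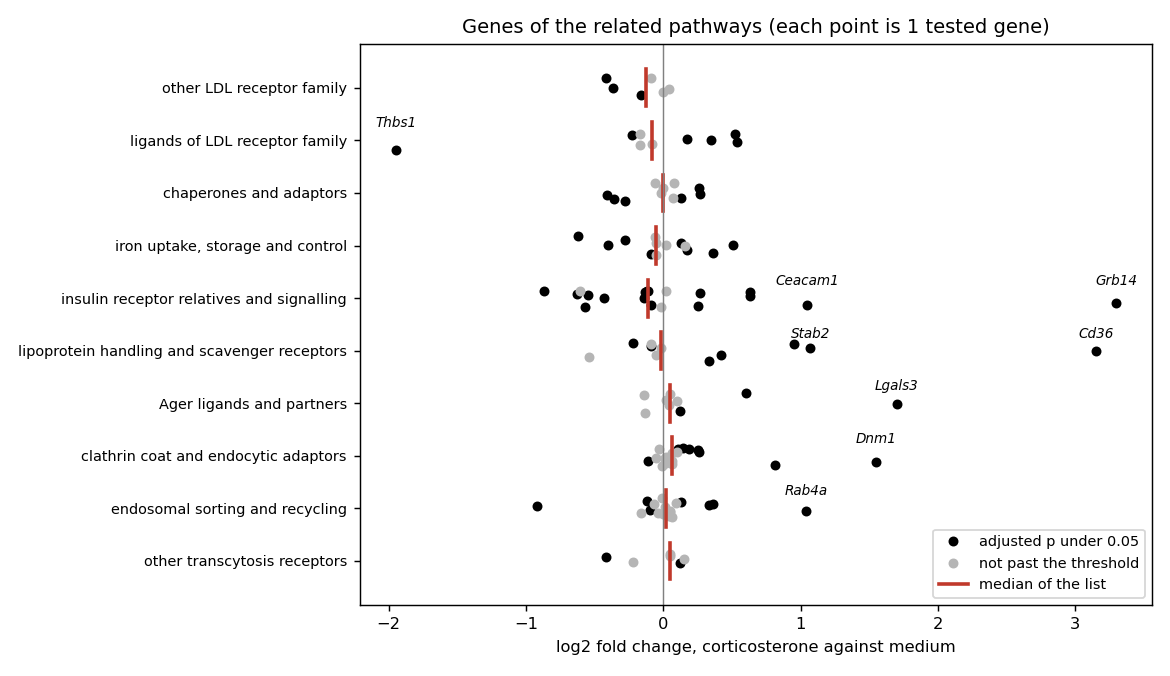
Log2 fold change (horizontal axis, corticosterone against medium) of each tested gene in 10 related lists, 1 point per gene, black where the adjusted p is under 0.05, with the list's median as a bar. Medians stay between -0.12 and 0.06 while single genes, such as Thbs1, Lgals3 and Rab4a, lie far to either side.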

How the data were processed

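Poly(A)-selected RNA of 4 corticosterone and 4 medium samples was sequenced. Reads were quantified with kallisto 0.46.1 on mm10 or GRCm38, per the submitters' processing notes. How transcripts were indexed and joined to genes is not stated there. A gene table of estimated counts was deposited by the authors, without normalization, together with a transcript table per library that holds estimated counts and TPM. TPM are the authors' abundances per 1000000 transcripts, deposited on an effective length that differed in corticosterone replicates 1 and 2, so counts were used for the main comparison.

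Gene identifiers were named with GENCODE M21, in which all 35852 genes had a symbol, and 97.28% of 119414 transcripts matched it by full identifier. After rounding, counts were analysed in edgeR 4.0.16 (R 4.3.3, filterByExpr, TMM, robust quasi-likelihood F test with group as the single term, Benjamini-Hochberg over all genes kept, threshold 0.05). CPM use TMM-scaled totals. SE values are the absolute log2 fold change over the root of F. Transcript usage was tested with edgeR diffSpliceDGE, and with limma 3.58.1 diffSplice as an alternative added after the data were seen. Both the gene test and the usage test were tested on simulated data. The gene test recovered changed genes there, and diffSpliceDGE called more unchanged genes than its threshold allows. Alternatives were library-size scaling, DESeq2 1.42.0, other filters, a replicate block, the 6 libraries with shorter effective lengths, a term for the other 2, log2(TPM + 1) and log2(TPM + 0.1) in limma, each library left out, and sums over all transcript versions (added after the data were seen).

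The members, lists and tests were chosen with earlier results of these data known. Named were all members, the 3 genes with the smallest p of each list and all tested members of the other LDL receptor family list. Also named were 3 genes most like Insr and Vldlr, transcripts with at least 10% of a member's counts, and Fkbp5, Tsc22d3 and Per1. Transcripts of Ager, and some that held nearly all counts of their gene, are not named singly. Some transcripts with a smaller share were named after their values were seen. Other list genes named were chosen after their values were seen. A few list genes are not reported here by name, while the counts of list genes include them.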

Additional observations from a re-analysis of the deposited data

Results flagged for a closer look

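In 100 sets of 4 libraries, 1 library lay far from the other 3 in 4 sets, by a gap to its nearest neighbour above the critical value of Dixon's test at 95%. Chance alone flags about 1 in 20 sets. None of them is a receptor gene. Lrp4 in medium had 1.71 CPM in replicate 3, where the others had 1.58 to 1.60. Stab2 with corticosterone had 4.16 CPM in replicate 3, where the others had 4.80 to 4.84. S100a1 with corticosterone had 9.74 CPM in the same replicate, where the others had 10.2 to 10.3. Lgals3 in medium had 7.49 CPM in replicate 4, where the others had 6.18 to 6.19.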

How the results depend on the processing

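Of the 21 alternatives to the gene test, those on TPM moved the counts most, and the cause was not tested. With log2(TPM + 1) and log2(TPM + 0.1) in 6 libraries, 2862 and 2854 genes were called, 1274 and 1250 higher and 1588 and 1604 lower, with 2 receptor genes (1 higher, 1 lower) and 44 list genes (25 higher, 19 lower) in both. Lrp1 was then at 0.03 and 0.06. DESeq2 called 1 receptor gene lower. Lrp8 of the gene table turned to 0.06 in the 6 libraries and 0.08 with a term for the other 2. Lrp11, at 0.00 in the main test, turned to -0.03 with library-size scaling, -0.12 in the 6 libraries and with the term, -0.11 and -0.21 on TPM, and with sums over all versions to -0.10 in the 6 libraries and -0.01 with library-size scaling. Without 1 library Lrp11 ran from -0.04 to 0.07 and Lrp12 had a lowest value of -0.02.

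Transcript usage was called in 16 genes with a CPM of 1 in 4 libraries, in 118 in the 6 libraries, and with limma in 25 and, in the 6 libraries, 183. Leaving out 1 library gave 49 to 206 genes, with 201, 142, 186 and 206 without corticosterone replicates 1 to 4, and 0 to 1 receptor genes. With the replicate number as a block, usage was called in 9 genes, and the gene test called 4880 genes, 6 of them receptor genes. The labels do not say if the numbers pair the samples. Correlations of same-numbered libraries were -0.05, 0.04, -0.11 and -0.07, within the -0.12 to 0.13 of all pairs. They show no shared pattern and cannot tell if the samples were prepared in pairs. Leaving out 1 library kept the called receptor genes at 6 to 7. Low counts limit Ager, Lrp4 and Cd36, among others, and the single transcripts.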
